A study of Rattus norvegicus with 8 samples.

Results

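Transforming growth factor beta (TGF-beta), bone morphogenetic protein (BMP) and activin signalling was followed through 10 genes, Tgfb1, Tgfb2, Tgfb3, Tgfbr1, Tgfbr2, Tgfbr3, Bmp2, Bmp4, Inhba and Fst, in primary cultures of rat semicircular canal duct (SCCD) epithelium with and without dexamethasone. Every probe set that the array's annotation gave to 1 of these genes, under its current symbol or a synonym, was taken, whatever its values. This gave 14 probe sets for 9 of the 10 genes, of the 10411 genes named in the deposited table. Tgfbr2, the type II TGF-beta receptor, has no named probe set in the annotation used here and was not analysed. Tgfb1 had a probe set, but its signals were too low to be tested. Of the 8 genes tested, Inhba, the subunit of activin A, alone changed by the test across all probe sets, and its transcript was lower with dexamethasone.

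The 4 dexamethasone samples were cultures treated with 100 nM dexamethasone, a synthetic glucocorticoid, and the 4 control samples were untreated cultures. All were primary cultures from the canals of neonatal Wistar rats, grown on permeable supports, so they hold whichever cells of the canals grew there. The exposure time for the arrays is not given in the sources used here, nor whether the array samples came from paired or separate dissections, so that each p-value covers only how far these samples differ among themselves. Total RNA went through 2 rounds of amplification by in vitro transcription before hybridization to an Affymetrix rat array, 1 per sample.

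TGF-beta, activins and BMPs are secreted dimers that bring type II and type I receptor kinases together on the cell surface. TGF-beta and activin receptors then phosphorylate Smad2 and Smad3, and BMP receptors phosphorylate Smad1, Smad5 and Smad9, which join Smad4 and enter the nucleus. Secreted binding proteins such as follistatin set how much ligand reaches the receptors, and in the developing mouse inner ear Bmp4 marks the sensory patches at the ends of the semicircular canals.

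Signals are linear intensities in arbitrary units, given after each array was rescaled to a trimmed mean of 500, which was the deposited level on replicates 1 and 2 of both groups but not on replicates 3 and 4 (202 to 336). These are called the 2 array sets here. The treatment was visible on every array. Sgk1, Fkbp5 and Tsc22d3, which glucocorticoids induce, were higher by 3.19, 2.14 and 2.16 on the log2 scale (limma, adjusted p = 1.09e-06, 3.17e-05 and 4.13e-05). The signal under which 95% of 55 probe sets for genes of other tissues lay was taken for each array as the level of silent genes, and ran between 106 and 176 over the 8 arrays. It stands in for detection calls and is a different measure. All 10 epithelial marker genes with a probe set were above that level on all 8 arrays. Of these 10, 1 was called lower with dexamethasone and 0 higher. Their summed signal was 47281 to 52252 on dexamethasone arrays and 47982 to 60341 on control arrays, which overlap. Of 12 fibroblast and mesenchyme markers, 6 were above it on all 8 arrays, among them Col1a1 and Col3a1, and 5 were above it on none (Dcn, Lum, Pdgfra, Pdgfrb and Twist1). The summed signal of these 12 was 5591 to 8899 on dexamethasone arrays and 7318 to 9008 on control arrays, which overlap. The macrophage markers summed to 979 to 1209 on dexamethasone arrays and 717 to 927 on control arrays without overlap, with Ptprc, Cd68, C1qa and C1qb above the silent level on no array. Those of endothelium summed to 2792 to 3338 on dexamethasone arrays and 991 to 1272 on control arrays, with Kdr the only 1 of 6 above the silent level on all arrays and Pecam1, Tie1, Vwf and Emcn above it on none. Of 2 endothelial genes tested, 1 was called higher and 1 lower. The higher was Kdr, by 2.00 on the log2 scale (limma, adjusted p = 2.98e-05). The markers of cartilage and bone summed to 6792 to 10037 on dexamethasone arrays and 1126 to 2955 on control arrays. Among them Col2a1 and Spp1 were above the silent level on all arrays, and Acan, Comp, Ibsp and Bglap on none. Of 3 of these genes tested 1 was called, Spp1, higher by 3.69 on the log2 scale (limma, adjusted p = 7.97e-06). The part of these cells in the values below was not tested, and in such cultures fewer cells of a type and less RNA per cell cannot be told apart. The ratio of the 3' to the 5' probe set of beta-actin, a measure used to judge RNA quality, was 6.17 to 8.07 on dexamethasone arrays and 8.10 to 13.7 on control arrays, highest on control replicate 3, without overlap. Treatment and this ratio therefore cannot be fully told apart, which limits every fit below that has the ratio as a covariate.

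Of the 14 probe sets, 11 of 8 genes had a mean signal of at least 100 and were tested with all others. Of the 11, 1 passed an adjusted p under 0.05, beside 2.69% of the 10368 probe sets tested (0.810% lower), and 1 call is too small a count to set against that share. An unadjusted p under 0.05 was found for 3 of them and for 16.1% of all probe sets. On 2 of the 11, Inhba and the stronger probe set of Tgfb2, all dexamethasone arrays lay below all control arrays, beside 5.46% of all probe sets, and on 0 of the 11 did they lie above. Among the 11 log2 fold changes, 6 were positive and 5 negative. Their median was 0.05, against -0.02 over all probe sets tested, and their median size was 0.25, against 0.16.

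**Figure D1:**
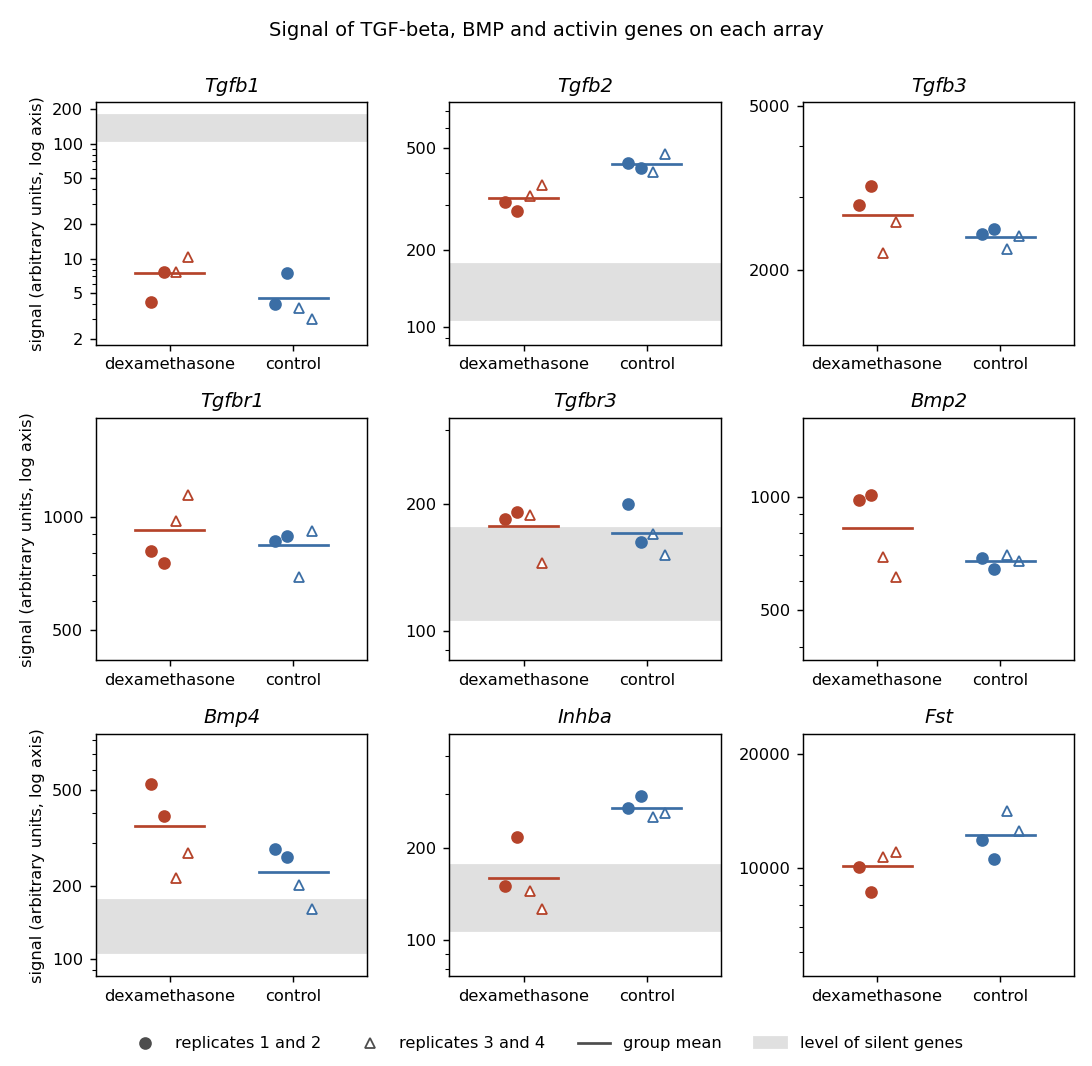
Signal on each array (log axis, arbitrary units) of the strongest probe set of the 9 genes with a probe set, with dexamethasone arrays on the left and control arrays on the right of each panel. Filled circles are replicates 1 and 2, open triangles replicates 3 and 4, lines are means of 4 arrays, and the grey band spans the level of silent genes over the 8 arrays (106 to 176). The groups are apart, with dexamethasone lower, for Tgfb2 and Inhba only, and Tgfb1 lies far under the band.

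Inhba encodes the beta A subunit, 2 copies of which form activin A. Its probe set 1369012_at had signals of 150, 216, 144 and 126 on dexamethasone replicates 1 to 4 and 270, 295, 252 and 260 on control replicates 1 to 4. Every dexamethasone array was below every control array, with dexamethasone replicate 2 the nearest to control. The mean was 159 ± 39.2 (SD, n = 4) with dexamethasone and 269 ± 18.6 (SD, n = 4) in control. Inhba was thus 1.72-fold lower, or -0.79 on the log2 scale (SE 0.18, limma adjusted p = 0.043), with a 95% confidence interval of -1.18 to -0.39. The exact permutation test gave a two-sided p of 0.0286, the smallest that 4 arrays against 4 allow. The signals are low: 3 of 4 dexamethasone arrays and 4 of 4 control arrays lay over the silent level. The size was -0.65 within replicates 1 and 2 and -0.92 within replicates 3 and 4, 2 arrays against 2 each. The call stood close to the threshold. It was kept only without dexamethasone replicate 2 (adjusted p = 0.0152) and lost when any 1 of the other 7 arrays was left out (adjusted p up to 0.128, log2 fold change -0.94 to -0.69 over all 8 omissions). With the beta-actin ratio as a covariate its log2 fold change was -0.86 and the adjusted p 0.253, and the call was also lost with no filter (0.119) and on the signals as deposited (-0.62, adjusted p = 1.00). Fitted with a block for the array set, its adjusted p was 0.0182.

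Fst encodes follistatin, which binds activin and keeps it from its receptors. It had 2 probe sets, both over the silent level on all 8 arrays. The stronger, 1387843_at, had signals of 10073, 8634, 10695 and 11000 on dexamethasone replicates 1 to 4 and 11852, 10537, 14087 and 12502 on control replicates 1 to 4. Its groups overlapped, since dexamethasone replicates 3 and 4 were above control replicate 2. On the log2 scale Fst differed by -0.28 (SE 0.10, interval at 95% confidence -0.50 to -0.05, limma adjusted p = 0.202, exact permutation two-sided p = 0.0857), and it was -0.26 within replicates 1 and 2 and -0.29 within replicates 3 and 4. It passed in the fit with an array set block (adjusted p = 0.0483) and in that with a replicate block (adjusted p = 0.0391), but not in the fit without a block. The other probe set, 1372750_at, ran from 4340 to 5907 on dexamethasone arrays and from 5355 to 6346 on control arrays, with a log2 fold change of -0.19 (SE 0.10, limma adjusted p = 0.408). Both estimates for Fst are therefore negative and neither passed. Within arrays, the log2 signal of Inhba minus that of Fst moved by -0.51 (SE 0.28) with dexamethasone and overlapped between the groups. This pair, and the pairs of Tgfb2 with Tgfb3, Bmp4 with Bmp2 and Tgfbr1 with Tgfbr3, were chosen after the values were seen, so their differences are given without a test.

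Over the 8 arrays, the 3 genes whose log2 signals followed those of Inhba most closely were Arhgef40 (Pearson r = 0.973), Tm2d3, a membrane protein (r = 0.971), and Vars1, which charges tRNA with valine (r = 0.966). These correlations were the highest among the genes tested, leaving out probe sets with no gene symbol or several. They describe 8 arrays that share the difference between the groups. Arhgef40 had mean signals of 322 with dexamethasone and 493 in control (log2 fold change -0.64, limma adjusted p = 0.0536), Tm2d3 1384 and 1553 (-0.17, adjusted p = 0.394), and Vars1 179 and 260 (-0.57, adjusted p = 0.156).

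Tgfb2, the TGF-beta ligand that depends most on the coreceptor betaglycan, had 2 probe sets. The stronger, 1387172_a_at, had signals of 309, 283, 325 and 358 on dexamethasone replicates 1 to 4 and 439, 417, 405 and 473 on control replicates 1 to 4. All 4 dexamethasone arrays were below all 4 control arrays, in both array sets. The stronger probe set differed by -0.45 on the log2 scale (SE 0.13, interval at 95% confidence -0.72 to -0.17), and the exact permutation test gave a two-sided p of 0.0286, the smallest possible. Over all probe sets it did not pass (limma adjusted p = 0.0897), except with a block for the array set (adjusted p = 0.0472). It was -0.53 within replicates 1 and 2 and -0.36 within replicates 3 and 4. The weaker probe set, 1388011_a_at, overlapped between the groups at 115 to 148 on dexamethasone arrays and 127 to 161 on control arrays, and was over the silent level on 4 of 8 arrays. Its log2 fold change was -0.18 (SE 0.18, limma adjusted p = 0.681).

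Tgfb3, a ligand of the same receptors, had signals of 2875, 3190, 2193 and 2612 on dexamethasone replicates 1 to 4 and 2437, 2507, 2247 and 2413 on control replicates 1 to 4 (1367859_at). Dexamethasone replicates 1 and 2 were the highest of the 8 arrays and dexamethasone replicate 3 the lowest. Its log2 fold change of 0.17 (SE 0.12, limma adjusted p = 0.531) had a 95% confidence interval of -0.09 to 0.42, at 0.29 within replicates 1 and 2 and 0.04 within replicates 3 and 4. The log2 signal of Tgfb2 minus that of Tgfb3 moved by -0.61 (SE 0.18) with dexamethasone. It lay between -3.49 and -2.76 on dexamethasone arrays and between -2.59 and -2.35 on control arrays, without overlap. Tgfb1, the most widely expressed of the 3 ligands in most tissues, was listed at signals of 2.98 to 10.4 over the 8 arrays (1370082_at), all under the floor of 16, so no fold was computed.

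The sequence around the start of Inhba and Tgfb2 is shown because these were the 2 genes lower without overlap between the groups. RefSeq (build GRCr8) holds a window of 250 bases before to 50 bases after the annotated start for 8 of the 10 genes. Capitals mark the only match found in these 2 windows, the TATA box motif TATAAA, at bases 211 to 216 of the Inhba window. The Inhba window is chr17:53804459-53804758 and the Tgfb2 window chr13:100792636-100792935, both on the minus strand and written 5′ to 3′.
Inhba: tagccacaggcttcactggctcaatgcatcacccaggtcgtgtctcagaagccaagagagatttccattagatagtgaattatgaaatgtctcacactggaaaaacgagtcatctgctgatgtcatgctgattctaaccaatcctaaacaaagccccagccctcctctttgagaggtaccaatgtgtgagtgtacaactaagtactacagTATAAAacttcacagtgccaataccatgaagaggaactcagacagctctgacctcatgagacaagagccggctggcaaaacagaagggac
Tgfb2: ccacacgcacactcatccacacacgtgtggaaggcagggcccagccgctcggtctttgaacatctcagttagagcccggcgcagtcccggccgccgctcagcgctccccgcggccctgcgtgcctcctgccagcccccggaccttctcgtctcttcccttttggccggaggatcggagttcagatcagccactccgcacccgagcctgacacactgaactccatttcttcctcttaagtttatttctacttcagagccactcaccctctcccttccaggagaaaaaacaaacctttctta
The motifs were searched on both strands. TATAAA occurred in 14.3% of the 27457 rat windows of this length and, of the 8 genes with a window, in Inhba alone. The glucocorticoid response element, AGAACA and TGTTC 3 bases apart, occurred in 0.0364% of windows and in 0 of the 8, and its half-site AGAACA, which any such element contains, in 20.1% and in Tgfb1 alone. The cAMP response element TGACGTCA (1.91%), the AP-1 site TGANTCA (7.33%) and the Smad box GTCTAGAC (0.215%) had no match in the 8. The half-site TGACG, which the cAMP response element contains, was found in 22.0% of windows and in Tgfb1 alone, and the GC-rich Smad motif GGCGCC in 11.8% and in Tgfbr1 and Tgfbr3. These are matches of letters, and no match says only that the letters are not in this window.

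Bmp4, a BMP ligand, had the largest positive log2 fold change among the 11 probe sets tested, but the spread between arrays was as large. Its signals (1387232_at) were 529, 391, 216 and 274 on dexamethasone replicates 1 to 4 and 285, 264, 203 and 162 on control replicates 1 to 4. Replicates 1 and 2 of each group were above replicates 3 and 4 of that group, and the groups overlapped. It differed by 0.58 on the log2 scale (SE 0.27, interval at 95% confidence -0.01 to 1.17, limma adjusted p = 0.326, exact permutation two-sided p = 0.143). Within replicates 1 and 2 it was 0.73 and within replicates 3 and 4 it was 0.43. A block for the array set gave an adjusted p of 0.0589.

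Bmp2, the closest relative of Bmp4 among the BMPs, split by array set. Its stronger probe set, 1398270_at, had signals of 981, 1009, 692 and 615 on dexamethasone replicates 1 to 4 and 690, 644, 699 and 676 on control replicates 1 to 4. Dexamethasone replicates 1 and 2 stood above all other arrays, while dexamethasone replicates 3 and 4 lay in or under the range of control. Over all arrays it differed by 0.25 on the log2 scale (SE 0.16, limma adjusted p = 0.498), with a 95% confidence interval of -0.10 to 0.60. It was 0.58 within replicates 1 and 2, where it passed the test alone (limma adjusted p = 0.034), and -0.08 within replicates 3 and 4. The difference between the sets was 0.65, and this interaction, a test added after the values were seen, gave a limma adjusted p of 0.787 over all probe sets. The weaker probe set of Bmp2, 1368945_at, had signals of 91.3 to 145 on dexamethasone arrays and 77.5 to 108 on control arrays, over the silent level on 0 of 8 arrays, so no fold is given (limma adjusted p = 0.496). The log2 signal of Bmp4 minus that of Bmp2 moved by 0.33 (SE 0.26) and overlapped between the groups.

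**Figure D2:**
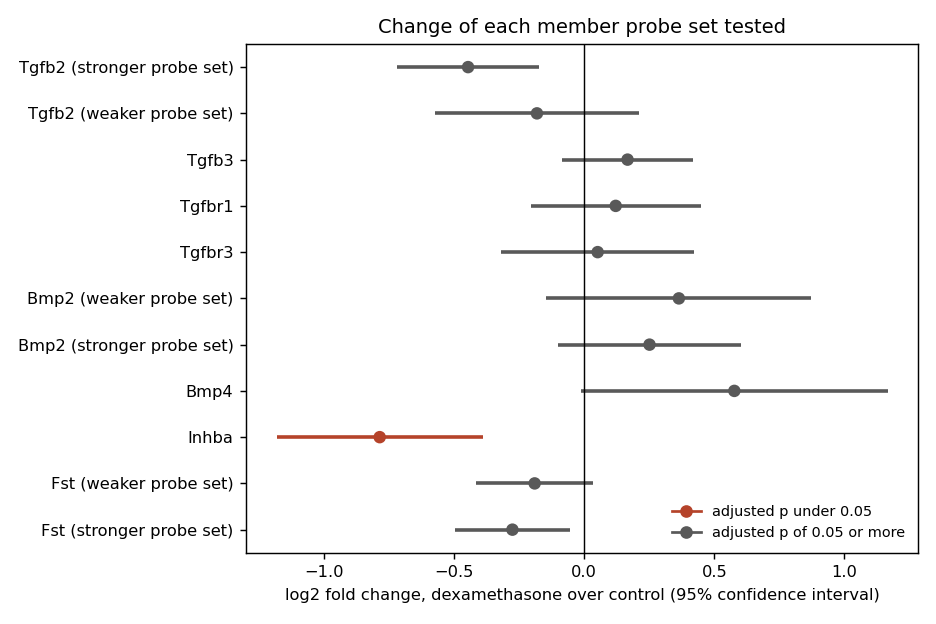
Log2 fold change, dexamethasone over control, of the 11 probe sets tested (points) with 95% confidence intervals (lines, limma, 4 arrays against 4). Only Inhba passed the adjusted test, and the intervals of the stronger probe sets of Tgfb2 and Fst also lie below 0. The weaker probe set of Bmp2 did not reach the silent level on any array.

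Neither receptor with a probe set passed the test. Tgfbr1, the type I TGF-beta receptor kinase, had signals of 814, 754, 976 and 1142 on dexamethasone replicates 1 to 4 and 865, 889, 694 and 917 on control replicates 1 to 4 (1376636_at). Its groups overlapped and the order of the groups turned between the array sets, at -0.16 within replicates 1 and 2 and 0.40 within replicates 3 and 4. Over all arrays Tgfbr1 differed by 0.12 on the log2 scale (SE 0.15, interval at 95% confidence -0.21 to 0.45, limma adjusted p = 0.751). Tgfbr3, betaglycan, which presents TGF-beta ligands to the signalling receptors, had signals of 184, 191, 188 and 145 on dexamethasone replicates 1 to 4 and 200.1, 163, 170.1 and 151 on control replicates 1 to 4 (1387484_at). Dexamethasone replicate 4 was the lowest of the 8 arrays and control replicate 1 the highest. Tgfbr3 differed by 0.05 on the log2 scale (SE 0.17, interval at 95% confidence -0.32 to 0.42, limma adjusted p = 0.920). The log2 signal of Tgfbr1 minus that of Tgfbr3 moved by 0.07 (SE 0.26) and overlapped. A further probe set of each receptor fell under the mean signal of 100 and was not tested. That of Tgfbr1 (1369504_at) gave 57.0 to 88.6 on dexamethasone arrays and 23.1 to 89.3 on control arrays, and that of Tgfbr3 (1369219_at) 59.8 to 91.7 on dexamethasone arrays and 45.8 to 95.6 on control arrays. Neither exceeded the level of silent genes on any array.

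**Figure D3:**
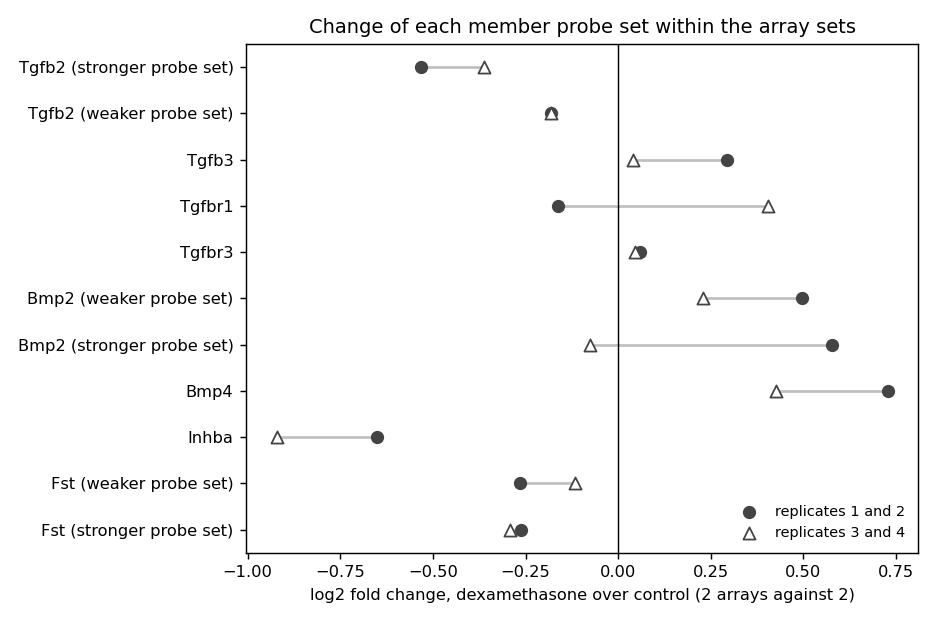
Log2 fold change, dexamethasone over control, of the 11 probe sets tested within replicates 1 and 2 (filled circles) and within replicates 3 and 4 (open triangles), 2 arrays against 2 each, with a line joining the 2 values of a probe set. Only Tgfbr1 and the stronger probe set of Bmp2 change sign between the sets, and all other probe sets keep theirs.

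The rest of the pathway was read from 8 lists of 111 other genes by role, of which 80 had a probe set and 64 (79 probe sets) were tested. Of these 79 probe sets, 2 were called, both higher (Tgfbi and Atoh8), beside 1.88% higher among all probe sets, and 0 were lower. An unadjusted p under 0.05 was found for 16 of 79, beside 16.1% of all probe sets. The same share stands beside the counts of unadjusted p given for single lists below. The groups did not overlap for 9 probe sets higher with dexamethasone and 2 lower, beside 5.57% and 5.46% of all probe sets, and the median log2 fold change was -0.01.

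Atoh8, a helix-loop-helix transcription factor that BMPs induce, had signals of 282, 211, 218 and 190.0 on dexamethasone replicates 1 to 4 and 73.1, 56.8, 130.5 and 86.5 on control replicates 1 to 4. All 4 dexamethasone arrays and 0 of 4 control arrays lay over the silent level, and the groups were apart. The fitted difference was 1.43 on the log2 scale (SE 0.26, interval at 95% confidence 0.87 to 1.99, limma adjusted p = 0.0108). Since control was not above the silent level, its signals raised to that level bound the change at 1.58-fold or more. Within replicates 1 and 2 the difference was 1.92 and within replicates 3 and 4 it was 0.94. Atoh8 passed the filter on the mean signal through its dexamethasone arrays (means of 225 with dexamethasone and 86.7 in control), and the call was lost with no filter (adjusted p = 0.0849), on the signals as deposited (0.221) and in replicates 3 and 4 alone (0.335). It was kept without each of the 8 arrays (adjusted p up to 0.0423) and with the beta-actin covariate (adjusted p = 0.00525). The other BMP targets did not pass, and Id1, an inhibitor of helix-loop-helix factors and a direct target of BMP signalling, had a log2 fold change of 0.20 (SE 0.24, limma adjusted p = 0.744), with 0.51 within replicates 1 and 2 and -0.12 within replicates 3 and 4. On this list 1 of 8 probe sets tested was called and 1 had an unadjusted p under 0.05 (limma), and the list median was 0.21.

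Tgfbi, a matrix protein named for its induction by TGF-beta, had signals of 233, 218, 226 and 255 on dexamethasone replicates 1 to 4 and 144, 132, 126 and 173 on control replicates 1 to 4. Its groups were apart, and 4 of 4 dexamethasone arrays but 1 of 4 control arrays exceeded the level of silent genes. It rose by 0.71 on the log2 scale (SE 0.16, interval at 95% confidence 0.36 to 1.06, limma adjusted p = 0.0403), with nearly the same size in both array sets (0.71 and 0.70). The call was lost without any 1 of 7 arrays and kept only without control replicate 4 (adjusted p 0.0308 to 0.122), and with the beta-actin covariate the adjusted p was 0.388. Of the other TGF-beta targets, Ccn2, a matricellular growth factor, had means of 7940 ± 241 (SD, n = 4) with dexamethasone and 7840 ± 644 (SD, n = 4) in control, and Fn1, fibronectin, 9789 ± 483 (SD, n = 4) with dexamethasone and 9814 ± 747 (SD, n = 4) in control. Their log2 fold changes were 0.02 and -0.00193. Of 13 probe sets tested on this list 1 was called, 4 had an unadjusted p under 0.05 (limma) and the median was -0.00193. The log2 fold changes on it ran from -0.63 to 0.99, so Ccn2 and Fn1 do not stand for the whole list.

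Among the Smads, 0 of 10 probe sets were called by limma, and 2 had an unadjusted p under 0.05. Smad7, the inhibitory Smad that TGF-beta itself induces and that blocks its receptors, had the smallest adjusted p, with signals of 217, 241, 246 and 245 on dexamethasone arrays and 144, 199.8, 95.1 and 143 on control arrays (1368896_at). The groups did not overlap, and the log2 fold change of 0.75 (SE 0.21) had a limma adjusted p of 0.0923. It was 0.43 within replicates 1 and 2, 1.07 within replicates 3 and 4 and 0.30 with the beta-actin covariate. The signals lay over the silent level on 4 dexamethasone arrays and 2 control arrays. Smad7 probe sets 1368897_at (means of 42.2 with dexamethasone and 52.8 in control) and 1368898_at (79.5 and 77.5) overlapped between the groups. Both were under the filter, not tested, and over the silent level on 0 arrays. Of the Smad regulators, Smurf2, a ubiquitin ligase that removes receptors and Smads, was lower on all dexamethasone arrays than on all control arrays with both of its probe sets. The stronger probe set averaged 1853 ± 77.1 (SD, n = 4) with dexamethasone and 2393 ± 226 (SD, n = 4) in control, a log2 fold change of -0.37 (SE 0.10, limma adjusted p = 0.0725, and 0.0395 with an array set block). The weaker gave -0.32 (adjusted p = 0.185), and 0 of 14 probe sets on this list were called (2 with an unadjusted p under 0.05).

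Outside the cell, 0 of 14 probe sets of antagonists were called (4 with an unadjusted p under 0.05). Fstl3, a follistatin relative that also binds activin, had signals of 351, 334, 465 and 405 on dexamethasone arrays and 287, 260.4, 129 and 243 on control arrays. The groups did not overlap, and the log2 fold change was 0.81 (SE 0.23, limma adjusted p = 0.0975), with 0.33 within replicates 1 and 2, 1.29 within replicates 3 and 4 and 0.31 with the beta-actin covariate. Of 8 probe sets of other ligands 0 were called (2 with an unadjusted p under 0.05). Bmp6, a further BMP ligand, was higher on all dexamethasone arrays than on all control arrays with both probe sets, with log2 fold changes of 0.31 (SE 0.11, limma adjusted p = 0.162) for the stronger and 0.93 (SE 0.29, adjusted p = 0.127) for the weaker, which the smaller adjusted p chose. The weaker gave 0.37 within replicates 1 and 2, 1.48 within replicates 3 and 4, 0.61 without control replicate 3 and 0.18 with the beta-actin covariate. Of 6 probe sets of receptors and coreceptors 0 were called (1 with an unadjusted p under 0.05), and Acvr2a, the activin receptor type II, had a log2 fold change of -0.35 (SE 0.14, limma adjusted p = 0.259). Of 6 probe sets for TGF-beta latency and activation 0 were called, 0 also at an unadjusted p under 0.05, and Ltbp3, which holds latent TGF-beta in the matrix, had one of -0.25 (SE 0.12, limma adjusted p = 0.338).

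**Figure D4:**
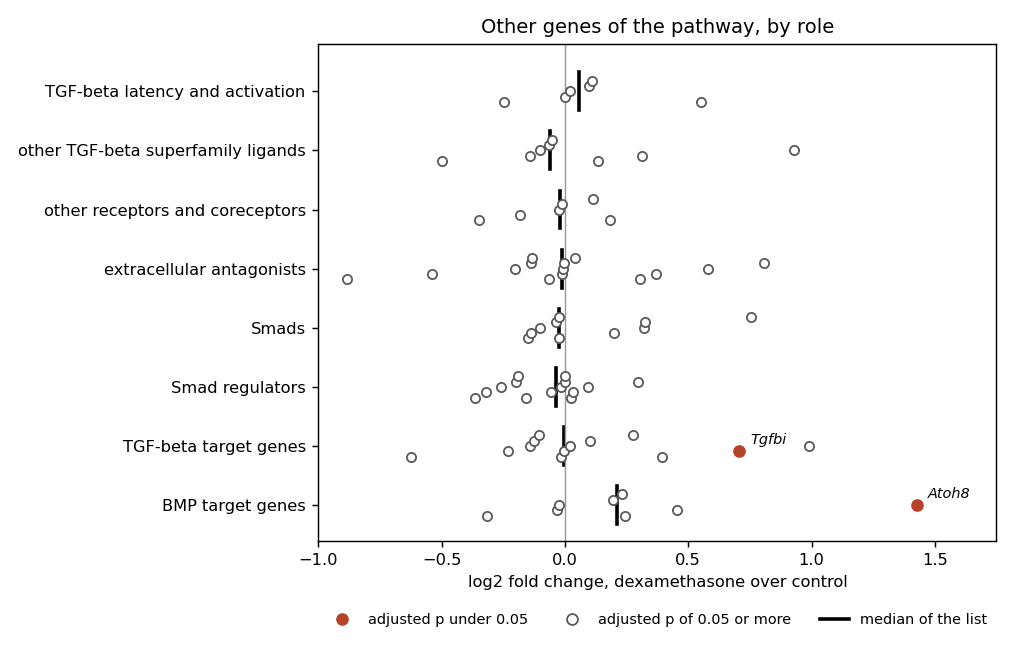
Log2 fold change, dexamethasone over control, of the 79 probe sets tested of the other pathway genes, 1 row per list, with black bars for list medians and filled points for an adjusted p under 0.05 (limma). Tgfbi (0.71) and Atoh8 (1.43) are the only filled points, and the medians of 7 of the 8 lists lie within 0.06 of 0.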

How the data were processed

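The deposited table holds 1 signal per probe set and array, a linear intensity that the authors made with Affymetrix's statistical algorithms, without detection calls. The labels name a scaling to a target of 500. Replicates 3 and 4 were below it, so each array was rescaled to a mean of 500 after trimming 2% of the probe sets at each end. Signals under 16 were set to 16 and log2 was taken. Of 15866 probe sets other than controls, 10368 had a mean of at least 100. These were tested in R 4.3.3 by limma 3.58.1 (lmFit, eBayes with a mean-variance trend, two-sided, Benjamini-Hochberg over all of them, threshold 0.05). The annotation gives 1 gene symbol to 12783, several to 312 and none to 2771. The code was tested on simulated data. Single probe sets were also compared by exact permutation of 4 against 4 log2 signals (13 such tests of members, not adjusted for their number). The number of arrays limits the precision.

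All 10 genes with all probe sets are named, the probe set of the highest mean standing for its gene. From each list of other pathway genes every called gene, and otherwise the gene with the smallest adjusted p, is named, as are Sgk1, Fkbp5 and Tsc22d3, and the 3 genes correlated best with a called member. Id1, Ccn2 and Fn1, and further genes in the closing section, were added after values were seen. Members and lists were chosen with earlier results of these data known. Alternatives were the signals as deposited, quantile normalization, median centring, no filter, a filter at 250, eBayes without the trend or robust, a floor of 100 or none, the replicate number or the array set as a block, each array set alone, a covariate for the beta-actin ratio (log2, 3' over 5'), leaving out each array, and the 1.3-fold rule of the study's methods on the 16 ratios of array pairs with no test. The array set interaction and the differences between 2 members were added after the data were seen.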

Additional observations from a re-analysis of the deposited data

Results flagged for a closer look

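Of 42 groups of 4 arrays checked, 2 held an array far from its group, and chance gives about 1 in 20. For Tgfbr3, dexamethasone replicate 4 had a signal of 145.3 while the other 3 dexamethasone arrays had 184 to 191. For Smad7, dexamethasone replicate 1 had a signal of 217 while the other 3 dexamethasone arrays had 241 to 246.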

How the results depend on the processing

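Inhba kept its negative sign in every alternative that tested it. Its call was kept in 10 of them, counting the fold rule. Among these were quantile normalization (limma adjusted p = 0.0237) and median centring (0.0246). It was lost in 12, among them the signals as deposited and most omissions of 1 array. The counts of all probe sets, of member probe sets and of other pathway probe sets called were 279, 1 and 2. They were 38, 0 and 0 on the signals as deposited, where the median log2 fold change of all probe sets was 0.14 in place of -0.02, and 34 of the 38 were higher against 195 of the 279. They were 102, 0 and 0 with no filter, and 65, 0 and 1 with the beta-actin covariate, which did not overlap between the groups. They were 440, 1 and 5 in replicates 1 and 2 alone, where the member is Bmp2 and not Inhba, and 21, 0 and 0 in replicates 3 and 4 alone, each with 2 arrays against 2. With the array set as a block they were 578, 3 (Inhba, Fst and Tgfb2) and 3 (Atoh8, Tgfbi and Smurf2). By the fold rule, which has no test, they were 1494, 3 (Inhba, Tgfb2 and Bmp4) and 13. With a filter at 250, under which Inhba was not tested, members and pathway counts were 0 and 0, and median centring left 1 pathway probe set, Atoh8. Leaving out 1 array gave 180 to 275, 0 to 1 and 1 to 2. The sign turned for Tgfbr1 in replicates 1 and 2 alone (-0.16) and with the covariate (-0.10), for Bmp2 in replicates 3 and 4 alone (-0.076) and for Tgfbr3 without control replicate 4 (-0.0051). Of the other comparisons of single probe sets with an alternative, 386 kept their sign and side of the threshold, 28 lost the call and 11 gained one. The causes were not tested.

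Samples with the same replicate number deviated together with correlations of 0.352, 0.252, 0.0347 and 0.406. For samples of different number within an array set the correlations ran from -0.0257 to 0.43, and between the array sets from -0.408 to 0.0743. The values therefore do not show that the number pairs the samples. With the replicate number as a block, 484 probe sets, 2 member probe sets (Inhba, adjusted p = 0.0238, and Fst, adjusted p = 0.0391) and 2 pathway probe sets were called.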

Other observations

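Several further genes of the pathway, named here after their values were seen, had an unadjusted p under 0.05 and did not pass the adjusted test (limma). Bambi, a pseudoreceptor that dampens TGF-beta and BMP signalling, had signals of 278, 240.2, 213 and 185 on dexamethasone arrays and 380.2, 328, 256 and 371 on control arrays (log2 fold change -0.54, adjusted p = 0.145). Sostdc1, a secreted BMP antagonist, had 179, 134, 141 and 135 on dexamethasone arrays and 479, 349, 139 and 227 on control arrays (-0.88, adjusted p = 0.186). Both were lower on average with overlap between the groups. Twsg1, which binds BMPs together with chordin, averaged 2994 ± 18.7 (SD, n = 4) with dexamethasone and 2342 ± 364 (SD, n = 4) in control without overlap (0.37, adjusted p = 0.131). Lox, which crosslinks collagen, averaged 3444 ± 279 (SD, n = 4) with dexamethasone and 2636 ± 385 (SD, n = 4) in control without overlap (0.39, adjusted p = 0.0952). The weaker Lox probe set, 1368172_a_at, averaged 1930 with dexamethasone and 1587 in control with overlap (0.28, limma adjusted p = 0.428). Its log2 fold change was -0.08 within replicates 1 and 2 and 0.63 within replicates 3 and 4.

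Grem1, a BMP antagonist, had signals of 598, 602, 203 and 227 on dexamethasone replicates 1 to 4 and 252, 336, 256 and 153 on control replicates 1 to 4. Its log2 fold change was 0.58 (SE 0.37, limma adjusted p = 0.492), with 1.04 within replicates 1 and 2 and 0.12 within replicates 3 and 4. The array set interaction was called for 0 of the 10368 probe sets tested, those of Grem1 and Bmp2 included. Gdf15, a distant member of the ligand family, was under the filter and had signals of 35.5, 39.0, 23.7 and 30.3 on dexamethasone arrays and 109, 101, 155 and 40.4 on control arrays, above the level of silent genes on 1 control array only.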
